A study of Mus musculus with 18 samples.

Results

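The genes described here are 9 sialyltransferases of the mouse: 3 members of the alpha-2,8 family (St8sia6, St8sia1 and St8sia4) and the 6 members of the alpha-2,3 family (St3gal1 to St3gal6). They were taken by name from the 32285 genes of the expression tables. A molecule of any of the 9 was counted in 15864 of 21286 colon cells, 14476 of 21347 cells of the small bowel lamina propria and 13918 of 16705 cells of the small bowel epithelium. Mice lacked St8sia6 (knockout, KO), carried 1 intact copy (heterozygote, het) or were wild type (WT), and 3 runs each used 1 KO, 1 het and 2 WT mice. Cells were enriched for CD45, the surface protein of blood-derived cells, and the colon preparation joined lamina propria and epithelium. They were profiled by droplet sequencing of the 5′ ends of transcripts, with 1 hashtag antibody for each genotype and the genotypes of an organ joined before capture. Each barcode ending of the deposited tables was given the genotype whose hashtag had the highest median count in its cells. The strain, age and sex of the mice are not given in the sources used here.

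Sialyltransferases move sialic acid from a nucleotide-activated donor onto the ends of glycans in the Golgi. Enzymes of the alpha-2,3 family cap galactose, and enzymes of the alpha-2,8 family add a further sialic acid onto one that is already there. ST8Sia6 makes short alpha-2,8-linked sialic acid on O-glycans, a structure bound by Siglec-E, an inhibitory receptor of mouse myeloid cells. The title of the study links this enzyme to gut inflammation. The values below show where its transcript was counted and how the related genes stood in the same cells.

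Cell types were gated by marker genes: T cells by Cd3e, B cells by Ms4a1, plasma cells by Mzb1, Xbp1 and Derl3 together, macrophages by C1qa and epithelial cells by Epcam. A gated cell had a molecule of its own marker and no complete marker set of another gate. Counts were summed per library, genotype and gate, and levels are CPM, the count scaled to the molecules of the sum. Each genotype thus had n = 3 sums per gate and tissue, apart from the plasma and macrophage gates of the epithelium, which held 23 and 21 cells and were not summed. The cells of the WT mice of a run share 1 hashtag and form 1 sum. For contrasts of genotypes and gates, p-values measure the spread left within the 3 libraries after a block for library. Those between tissues carry no block and measure the spread between libraries.

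The 27 genotype and library sets held 6316359 to 30418604 molecules. The WT hashtag led in only 55.5% of cells assigned to WT in lamina propria library 3, whose cells had a median of 1420 molecules, and in 84.4% and 72.9% in epithelium libraries 1 and 2. In the KO and het sets the own hashtag led in at least 95.8% of cells. Fewer cells reached an 80% share of their own hashtag. Per set these were 18.0% to 75.6% of KO, 63.2% to 100% of het and 22.0% to 80.4% of WT cells. No cell barcode was shared within a library, and 197, 190 and 139 were shared between libraries of the colon, lamina propria and epithelium. Each gate had its own check genes above those of the other types, apart from the lamina propria, where the T, B, macrophage and epithelial gates held more of the plasma check genes (Jchain, Igha, Sdc1, Prg2 and Tnfrsf17; 19165 to 62670 CPM) than of their own. Jchain, which joins IgA chains, measured 5927 to 25658 CPM in T sums and 7198 to 20745 CPM in epithelial sums of the lamina propria.

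The windows upstream of 3 members are printed because these 3 had their highest WT level in different gates, St8sia6 in plasma cells, St8sia1 in T cells and St3gal4 in epithelial cells. Each is the 250 bases before an annotated RefSeq transcript start on GRCm38.p6, read 5′ to 3′ on the gene's strand. Capitals mark a GC box (GGGCGG, or CCGCCC on the other strand) or a CCAAT box (CCAAT, or ATTGG on the other strand). St8sia6 runs from 13651018 to 13794734 on the minus strand of chromosome 2 and overlaps no other RefSeq gene, and its window lies within this span, at chr2:13793521-13793770. St8sia1, on the minus strand of chromosome 6, runs from 142821541 to 142989528, and its window (chr6:142964453-142964702) also lies inside the gene. St3gal4, on the minus strand of chromosome 9, runs from 35046576 to 35116864, and its window (chr9:35116865-35117114) lies directly upstream of it. Of the members, 8 overlap at least 1 other RefSeq gene, among them Dcbld2 at St3gal6.
St8sia6: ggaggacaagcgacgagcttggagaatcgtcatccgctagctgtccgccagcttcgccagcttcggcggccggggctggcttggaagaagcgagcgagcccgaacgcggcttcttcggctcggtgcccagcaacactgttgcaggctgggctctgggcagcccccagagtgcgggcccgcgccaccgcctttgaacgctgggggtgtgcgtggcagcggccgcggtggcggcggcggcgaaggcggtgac
St8sia1: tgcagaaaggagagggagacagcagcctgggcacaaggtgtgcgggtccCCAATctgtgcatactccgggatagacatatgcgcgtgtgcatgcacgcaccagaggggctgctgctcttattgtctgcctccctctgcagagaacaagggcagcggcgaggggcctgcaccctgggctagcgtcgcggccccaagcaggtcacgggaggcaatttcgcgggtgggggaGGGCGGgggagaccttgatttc
St3gal4: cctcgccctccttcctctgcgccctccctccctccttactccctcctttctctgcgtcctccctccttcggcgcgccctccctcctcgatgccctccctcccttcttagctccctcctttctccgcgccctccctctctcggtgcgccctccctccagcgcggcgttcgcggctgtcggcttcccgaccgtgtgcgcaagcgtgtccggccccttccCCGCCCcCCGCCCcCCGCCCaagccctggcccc

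The St8sia6 window had 30 CpG pairs and 70.8% G and C, and none of the 3 motifs searched (GC box, CCAAT box and the TATA box TATAAA, both strands). The St8sia1 window held 1 GC box, 1 CCAAT box and 14 CpG pairs, and the St3gal4 window 3 GC boxes and 25 CpG pairs. Of 32851 such windows in the table, 32.7% held a GC box, 33.8% a CCAAT box and 12.4% a TATA box, and the median was 6 CpG pairs and 52.4% G and C. Windows were found for 7 of the 9 members. A match describes letters and no bound factor.

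Among the summed gates, St8sia6 had its highest WT level in plasma cells, the antibody-secreting cells of the gut wall. In WT plasma sums of the lamina propria it measured 64.3, 73.2 and 73.1 CPM in libraries 1 to 3, and in those of the colon 50.5, 55.0 and 13.2 CPM. Almost all gated plasma cells of the lamina propria had Igha, the IgA heavy chain, as their leading heavy chain gene (1305 of 1307 KO, 796 of 796 het and 1149 of 1150 WT cells). At least 1 St8sia6 molecule was counted in 45.2% of WT plasma cells of the lamina propria (exact 95% interval 42.3 to 48.1, counting error only) and in 50.5% of those of the colon (40.2 to 60.8). Their median depths were 10626 and 19597 molecules. The WT share was 3.1% in the T gate and 6.7% in the B gate of the colon, 6.7% and 7.2% in those of the lamina propria, and 0.69% and 11.8% in those of the epithelium. These T and B gates were shallower, with median depths of 2066 to 4885 molecules over all genotypes. Thinned to 1000 molecules a cell, the WT plasma share fell to 6.5% (lamina propria) and 4.17% (colon). The raw shares were not matched for depth, so their differences cannot be read as expression alone. The lowest share was in the epithelial gate of the epithelium, 0.33% of 1214 cells with a median of 3809 molecules.

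**Figure D1:**
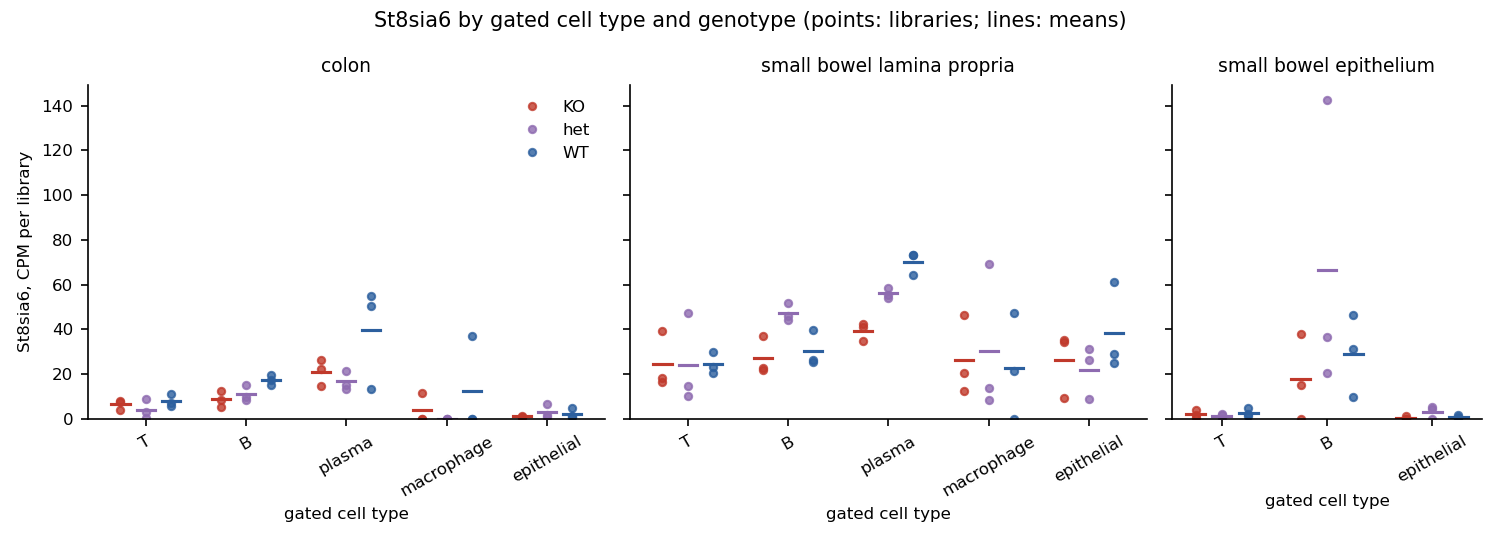
St8sia6 level in CPM (y axis) by gated cell type (x axis) in 3 tissues, with KO, het and WT side by side; points are libraries and lines are means. In the plasma gate of the lamina propria all KO points (34.8 to 42.6 CPM) lie below all het points, and these below all WT points (64.3 to 73.2 CPM).

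In the colon and lamina propria the WT mean of St8sia6 was lower in the other gates than in plasma cells. WT T sums averaged 7.97 ± 2.88 CPM, against 39.6 ± 22.9 CPM in WT plasma sums of the colon (SD, n = 3 each). The T against plasma log2 ratio was -3.84 (SE 0.41, edgeR adjusted p = 3.32e-06), where 27.6% of genes were called. In the lamina propria T sums averaged 24.6 ± 4.83 CPM, against 70.2 ± 5.11 CPM in plasma sums (log2 -2.74, SE 0.35, adjusted p = 1.18e-05), where 38.3% were called. These ratios are on the TMM scale, which adjusts for the large share that a few immunoglobulin genes take of a plasma cell's molecules. The log2 ratios of the unscaled mean levels were -2.31 and -1.51.

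By WT means, B cells stood between T and plasma cells in the colon. In library 3 the plasma sum, with 5 molecules in 22 cells at 13.2 CPM, lay below the B sum at 19.5 CPM. WT B sums averaged 17.3 ± 2.23 CPM there, with a B against plasma log2 ratio of -2.59 (SE 0.37, adjusted p = 6.44e-05, with 28% of genes called) and -1.19 for the unscaled means. T against B gave -1.26 (SE 0.35, adjusted p = 0.0115, with 32.1% called), a call lost without library 1 (-1.28) and without library 3 (-0.94). In the lamina propria B sums averaged 30.5 ± 8.16 CPM, with -2.47 against plasma (SE 0.33, adjusted p = 1.69e-05, with 39.6% called), and T against B did not pass (-0.27, SE 0.49). In the epithelium T sums averaged 2.80 ± 1.73 CPM, against 29.3 ± 18.5 CPM in B sums (log2 -3.62, SE 0.74, adjusted p = 0.000335, with 19.1% called).

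Macrophages, which are myeloid cells, gave few St8sia6 molecules, 1 in 49 WT cells of the colon and 9 in 116 of the lamina propria. Plasma against macrophage gave 4.44 in the colon (SE 1.12, adjusted p = 0.0147) and 2.58 in the lamina propria (SE 0.48, adjusted p = 0.00052). The colon call was lost without library 1 (3.44), and without library 2 the ratio was 10.9. Plasma against epithelial log2 ratios were 5.87 in the colon (SE 0.45, adjusted p = 8.03e-08, with 39.4% of genes called) and 1.95 in the lamina propria (SE 0.24, adjusted p = 3.67e-06, with 53.5% called). In WT epithelial sums St8sia6 averaged 2.34 ± 2.07 CPM in the colon and 38.3 ± 20.0 CPM in the lamina propria. The lamina propria epithelial gate held 11534 to 17607 CPM of Jchain in its WT sums and 1.20 to 3.48 St8sia6 molecules per 1000 Jchain molecules over all sums, beside 0.64 to 1.32 in the plasma gate. The part of plasma cell RNA in these levels was not tested.

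The WT means of St8sia6 stood in this order: lamina propria plasma, colon plasma, lamina propria epithelial, lamina propria B, epithelium B, lamina propria T, lamina propria macrophage, colon B, colon macrophage, colon T, epithelium T, colon epithelial and epithelium epithelial, the last at 0.80 ± 0.82 CPM. The ranges of the 3 libraries did not overlap between the first and second places and between colon T and epithelium T, and they overlapped between the other neighbours. Colon against lamina propria plasma sums gave a log2 ratio of -0.65 (SE 0.28, adjusted p = 0.18), which did not pass, beside 8.81% of genes called.

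Between tissues, the St8sia6 level of the T gate followed the order lamina propria, colon, epithelium. The contrasts between tissues carried no block for run. Colon against lamina propria gave a log2 ratio of -1.92 (SE 0.50, adjusted p = 0.014), colon against epithelium 1.86 (SE 0.48, adjusted p = 0.013) and lamina propria against epithelium 3.79 (SE 0.57, adjusted p = 0.000359), beside 25.2%, 24.5% and 24.3% of genes called. Jchain in the T gate, at 5927 CPM or more in each lamina propria sum, moved with this order, and its part was not tested. B sums of the colon were lower than those of the lamina propria (-0.97, SE 0.32, adjusted p = 0.033, with 27.8% called). Leaving out a library ended the call in T sums of colon against lamina propria (-1.53 without library 1, -1.79 without library 3) and of colon against epithelium (1.49 without library 2, 1.51 without library 3), and in B sums (-1.03 without library 1).

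The gates leave out cells with the plasma marker set that also held a molecule of another gate's marker. Plasma cells, doublets and cells with free plasma cell RNA were not told apart among them. In WT cells of the lamina propria 28.8% of all St8sia6 molecules lay in the plasma gate and 47.3% in cells with the plasma set and another marker, and in the colon 6.53% and 53.0%. Cells with no gate's marker set were 44.1% of WT lamina propria cells and held 14.5% of the molecules. With libraries joined their level was 66.3 CPM, beside 69.3 CPM in the plasma gate, and in KO 46.9 beside 40.3 CPM. In the colon such WT cells held 3.35% at 12.3 CPM, beside 44.9 CPM in the plasma gate. What these cells are was not tested. Sorted by the share of a cell's molecules from immunoglobulin genes, with levels scaled to the remaining molecules, the St8sia6 level was 86.8 CPM for KO, 122.8 for het and 153.8 for WT lamina propria cells with 60% or more, and 3.40, 8.46 and 5.06 CPM in those with under 1%. In the colon the matching values were 49.4, 62 and 95.5 CPM and 2.95, 4.55 and 6.59 CPM. In each genotype the level was higher in the antibody-rich cells than in those with under 1%. It did not rise steadily with the share in KO lamina propria cells. Those with 5% to 20% reached 101.2 CPM, above those with 60% or more. The matching het and WT levels, 93.8 and 121.3 CPM, lay below those with 60% or more. So did all 3 colon levels for 5% to 20% (27.4, 33.8 and 48.1 CPM).

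Within the T gate, the share of cells with a St8sia6 molecule was higher in Cd4 than in Cd8a cells in each library of each tissue, with all genotypes joined. In libraries 1 to 3 it was 6.39%, 2.26% and 4.92% for Cd4 and 0.104%, 0.037% and 0.0728% for Cd8a cells in the epithelium, 6.56%, 8.25% and 4.42% and then 1.07%, 0.455% and 0.187% in the colon, and 3.80%, 5.31% and 8.46% and then 2.63%, 2.00% and 1.40% in the lamina propria. In the epithelium T cells with Cd4 and no Cd8a held 41 molecules in 562 cells, with a molecule in 4.45% of cells (2.90 to 6.5), and those with Cd8a held 7 in 7372 cells (0.068%, 0.022 to 0.158). Their median depths were close, 4828 and 4956 molecules. In the colon Cd4 cells held 50 molecules in 509 cells (6.48%, 4.5 to 8.98), and Cd8a cells held 8 in 1568 cells (0.51%, 0.221 to 1.00), at median depths of 4637 and 5136 molecules.

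Among the Cd4 cells, those with a molecule of Lef1, a transcription factor of naive and early memory T cells, held most of the St8sia6 molecules, a split chosen after values had been seen. In the epithelium 39 of the 41 molecules lay in the 133 cells with Lef1 (47.3 CPM), against 2 in the 429 cells without it (0.95 CPM). In the colon the 224 cells with Lef1 held 47 molecules (35.6 CPM), against 3 in the 285 cells without it (2.01 CPM). Cells with Ccr7, a lymph node homing receptor, held 32 molecules in 58 cells of the epithelium, against 9 in the 504 cells without it.

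**Figure D2:**
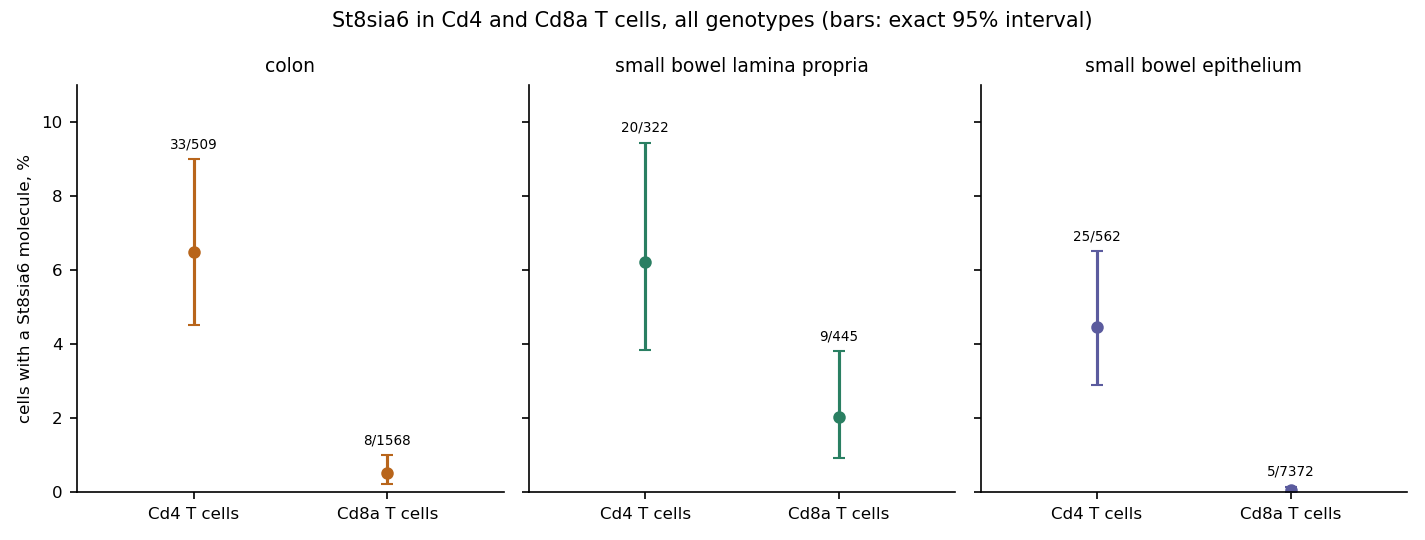
Share of T cells with a St8sia6 molecule (y axis, percent, with exact 95% intervals) for Cd4 and Cd8a T cells (x axis) of each tissue, all genotypes joined, with the cells that held a molecule and all cells above each point. Cd4 cells stand at 6.48% (colon), 6.21% (lamina propria) and 4.45% (epithelium), and Cd8a cells at 0.51%, 2.02% and 0.068%.

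In the lamina propria Cd4 cells held 40 St8sia6 molecules in 322 cells, 24 of them in the 47 cells with Lef1. Of the 40 molecules 26 lay in KO library 3, so the level in this tissue rests on 1 library. Cd4 cells with Cxcr3, Tbx21 or Ifng, genes of type 1 helper cells, held 0 St8sia6 molecules in 356 cells of the epithelium, 2 in 239 of the colon and 4 in 91 of the lamina propria (0, 1.27 and 9.29 CPM). Cd4 cells with Il17a held 0 molecules in 31 cells of the epithelium, 0 in 71 of the colon and 1 in 80 of the lamina propria. The counts of 0 allow shares of cells with a molecule of up to 0.843% for the 356 cells and 9.68% and 4.23% for the 31 and 71 cells, and do not limit the share of cells that express the gene.

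By genotype, the Cd4 cells of the epithelium held 20 St8sia6 molecules in 198 KO cells, 3 in 259 het cells and 18 in 105 WT cells. In the colon the counts were 15 in 198 KO, 3 in 90 het and 32 in 221 WT cells. Per library the colon levels were 20.8, 17.2 and 9.37 CPM in KO and 15.8, 34.7 and 15.8 CPM in WT, which overlap. St8sia6 molecules were counted in KO T cells as well.

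Among B cells, St8sia6 was higher in cells without an Ighd molecule, the gene of the IgD chain that naive B cells carry, another split chosen after values had been seen. Genotypes and libraries were joined for the B cell splits given here, and the spread between libraries was not tested. In the colon the level was 12.1 CPM in cells with Ighd and 16.5 CPM without it. It was 18.2 and 43.6 CPM in the lamina propria, and 24.0 and 60.1 CPM in the epithelium. WT colon B cells stood at 17.3 CPM, above KO cells (9.17 CPM) and het cells (10.8 CPM), and the part of genotype in the split was not tested. Jchain measured 4188 to 8192 CPM in B sums of the lamina propria, and its part was not tested. Colon B cells with Fas, found on activated B cells, held 92 molecules in 353 cells at 26.3 CPM, and those with Cd80, a costimulator, held 46 in 97 cells at 53.5 CPM. The Fas cells had a median of 8465 molecules, against 3894 in all B cells of the colon.

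Outside the gates, endothelial cells of the lamina propria (Pecam1 and Cdh5) held St8sia6 as well. Levels were 10.3, 10.2 and 16.7 CPM in KO libraries 1 to 3, 109.7 and 111.7 CPM in het libraries 1 and 2, and 13.0 and 48.3 CPM in WT libraries 1 and 2 (sums of 10 cells or more), over all libraries from 10 molecules in 143 KO, 29 in 60 het and 10 in 61 WT cells. Het lay highest and KO and WT overlapped. The het levels were above that of the het plasma gate of this tissue, 56.1 CPM with libraries joined.

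The genes whose level followed St8sia6 most closely over the 39 WT sums, by Pearson correlation of log2(CPM + 1) among 9080 genes with a mean of at least 10 CPM, were Eaf2 (0.80), Tnfrsf13b (0.79), Hdac9 (0.78), Enpp1 (0.78) and C130026I21Rik (0.77). Tnfrsf13b encodes TACI, a receptor of B and plasma cells for survival ligands, and averaged 184.7 CPM in plasma sums and 56.6 CPM in the other gates. The sums share libraries, and plasma sums have the greatest depth per cell. Of the other members, St8sia4 had 0.53, St8sia1 -0.41 and St3gal4 -0.60.

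The knockout was read first from St8sia6 itself. In plasma sums of the lamina propria it measured 34.8, 41.1 and 42.6 CPM in KO, 54.2, 58.7 and 55.6 CPM in het and 64.3, 73.2 and 73.1 CPM in WT libraries 1 to 3. The 3 genotypes did not overlap, with KO lowest and het between. The KO over WT log2 value was -0.86 (SE 0.08, adjusted p = 0.033 by edgeR), 1 of 6 genes called among 9215 (0.0651%), and the KO mean was 56.2% of the WT mean. Het against WT was -0.35 (SE 0.08, adjusted p = 0.49, with 0.0109% of genes called) and KO against het -0.51 (SE 0.08, adjusted p = 0.45), which did not pass. Without library 1, 2 or 3 the ratio stayed between -0.90 and -0.82, but the adjusted p was 0.103, 0.283 and 0.176, and the call was lost each time. The depth of these sums leaves St8sia6 at 573 molecules in KO, 496 in het and 910 in WT cells.

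St8sia6 molecules were counted in KO cells of all 3 libraries at this gate. Which part of the gene is missing is not given in the sources used here, and reads of the 5′ end outside the deleted part check nothing. In the same sums Gm10260, a predicted gene that was high in some WT libraries and low in KO and het, measured 0.89, 1.74 and 0.16 CPM in KO, 0.65, 1.41 and 0.68 in het, and 123.6, 199.7 and 5.03 CPM in WT. WT library 3, low for Gm10260, was also the set in which the WT hashtag led in 55.5% of cells, and it was not low for St8sia6. With cells kept only where the own hashtag led, KO against WT was -0.87 (adjusted p = 0.031).

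The share of plasma cells with a St8sia6 molecule ran the same way in the lamina propria, 28.8% in KO (26.3 to 31.3), 37.9% in het (34.6 to 41.4) and 45.2% in WT (42.3 to 48.1). Thinned to 1000 molecules a cell the shares were 3.61%, 5.92% and 6.5%. In the colon they were 28.7% in KO, 26.2% in het and 50.5% in WT, and 3.15%, 1.64% and 4.17% after thinning.

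In the other gates KO against WT did not pass for St8sia6. Colon plasma sums measured 26.3, 14.8 and 22.3 CPM in KO, 13.6, 15.1 and 21.6 CPM in het and 50.5, 55.0 and 13.2 CPM in WT, so that WT library 3 overlapped the KO sums (log2 -1.04, SE 0.41, adjusted p = 0.96, with 0% of genes called, 191 of 3908 at an unadjusted p under 0.05 and 18 called by DESeq2). Gm10260 in those WT sums was at 0, 230.7 and 0 CPM. Without library 3 the log2 ratio was -1.42, and without library 2 it was -0.59.

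Colon B sums measured 5.21, 8.66 and 12.5 CPM in KO, 9.84, 8.65 and 15.2 CPM in het and 15.1, 17.3 and 19.5 CPM in WT. KO and WT did not overlap, yet the ratio of -0.95 (SE 0.23, adjusted p = 0.18) did not pass, beside 0.101% of genes called. T gate ratios were -0.33 in the colon (SE 0.46), -0.28 in the lamina propria (SE 0.45) and -0.33 in the epithelium (SE 0.66). Over the 9 fits that could test St8sia6, all 9 log2 ratios were below 0 and 1 passed. In unscaled levels the KO mean of lamina propria T sums was 101% of the WT mean, with 16.7, 18.2 and 39.4 CPM in KO, 14.6, 10.1 and 47.4 CPM in het and 30.0, 20.7 and 23.0 CPM in WT, and that of the untested lamina propria macrophage sums was 116%. The ratio was not tested in macrophages or in B and epithelial sums of the epithelium, where the filter on low counts left the gene out. By edgeR's interaction test the KO effect on St8sia6 did not pass as different between tissues in the 4 gates tested (adjusted p = 1 for T, B and plasma and 0.998 for epithelial sums), where 0.0349%, 0.0599%, 0% and 4.91% of genes were called.

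St8sia1, which makes ganglioside GD3 in the same alpha-2,8 family, was higher in T than in B and plasma sums. In WT T sums it averaged 26.2 ± 9.08 CPM in the colon, 63.5 ± 29.2 CPM in the lamina propria and 40.6 ± 11.6 CPM in the epithelium, against 1.32 ± 0.55, 4.24 ± 3.65 and 0 CPM in B sums. T against B log2 ratios were 4.41 in the colon (SE 0.45, adjusted p = 1.25e-06) and 4.26 in the lamina propria (SE 0.99, adjusted p = 0.00484, with 20.1% of genes called), and in the epithelium no molecule was counted in B sums. T against plasma gave 2.63 (SE 0.77, adjusted p = 0.018) and 4.5 (SE 0.71, adjusted p = 8.62e-05). T sums of the colon were lower than those of the lamina propria (-1.53, SE 0.37, adjusted p = 0.00954). Calls were lost for T against B in the lamina propria without library 2 (3.53), for T against plasma in the colon without library 1 (2.76) or 2 (2.95), and between the tissues without library 3 (-1.19). Macrophage sums of the lamina propria averaged 36.2 ± 54.8 CPM, with 99.3 CPM in library 3.

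With all genotypes and libraries joined, St8sia1 was counted in 19.4% of Cd4 cells of the colon (16.1 to 23.2) and 5.48% of Cd8a cells (4.41 to 6.73). In the epithelium it was counted in 24.7% (21.2 to 28.5) of Cd4 and 10.3% (9.58 to 11.0) of Cd8a cells. KO against WT in the T gate was -0.09 in the colon (SE 0.22), -0.31 in the lamina propria (SE 0.27) and -0.46 in the epithelium (SE 0.17, adjusted p = 0.27). In the last of these the sums were 29.6, 31.1 and 26.7 CPM in KO, 25.6, 21.6 and 35.3 in het and 45.7, 27.3 and 48.7 in WT, so WT library 2 overlapped KO.

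St8sia4, a polysialyltransferase that builds long alpha-2,8 chains, was counted in all blood-derived gates. WT means ran from 75.8 ± 4.46 CPM in colon macrophages to 342 ± 60.8 CPM in those of the lamina propria (colon against lamina propria -2.29, SE 0.36, adjusted p = 0.00747, with 12.8% of genes called). Epithelial sums were at 25.9 ± 21.7 CPM in the colon, 149 ± 63.2 CPM in the lamina propria and 25.5 ± 2.57 CPM in the epithelium. T against epithelial gave 2.65 in the colon (SE 0.37, adjusted p = 1.51e-05, with 60.7% called) and 3.03 in the epithelium (SE 0.18, adjusted p = 5.22e-17, with 70.7% called), and did not pass in the lamina propria (0.51, SE 0.35, adjusted p = 0.26). Plasma sums were above T sums on the TMM scale (T against plasma -1.41 in the colon and -1.06 in the lamina propria, adjusted p = 0.0101 and 0.0248), but not in unscaled levels, where T sums averaged 150 and 247 CPM and plasma sums 142 and 224 CPM. These calls were lost in the colon without library 3 (-1.02) and in the lamina propria without library 2 (-1.06) or 3 (-1.04), and that of the macrophages without library 1 (-2.27). KO against WT did not pass in lamina propria plasma sums, with 193, 216 and 194 CPM of St8sia4 in KO, 209, 232 and 194 CPM in het and 224, 238 and 209 CPM in WT (-0.18, SE 0.11, adjusted p = 0.69). Outside the gates, plasmacytoid cells of the epithelium in WT mice (Siglech and Ccr9) held 834 CPM of St8sia4 and 202 CPM of St8sia1 in 51 cells.

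Among the alpha-2,3 enzymes that act mainly on the galactose of N-glycans and glycolipids, St3gal4 had its highest WT mean in epithelial sums in each tissue, and St3gal3 in the colon. St3gal4 measured 519, 504 and 679 CPM in WT epithelial sums of the epithelium, 116 ± 15.4 CPM in the colon and 103 ± 47.8 CPM in the lamina propria. T against epithelial was -3.62 in the epithelium (SE 0.18, adjusted p = 1.13e-18), -1.99 in the colon (SE 0.23) and -2.57 in the lamina propria (SE 0.37, adjusted p = 2.98e-05, with 44.7% of genes called). Colon epithelial sums were lower than those of the epithelium (-2.51, SE 0.36, adjusted p = 0.000606, with 24.7% called). B and plasma sums of the colon and lamina propria held 3.45 to 8.67 CPM.

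St3gal3 was highest in epithelial sums of the colon, at 81.4, 80.7 and 82.8 CPM in WT, and lowest in plasma sums, at 0.95 ± 0.86 CPM in the colon and 5.32 ± 2.55 CPM in the lamina propria. Plasma against epithelial gave -4.83 in the colon (SE 0.56, adjusted p = 5.47e-06) and -1.31 in the lamina propria (SE 0.26, adjusted p = 0.000443). In both tissues these gates stood in the reverse order to that of St8sia6. In the epithelium St3gal3 was higher in T sums, at 48.7 ± 7.46 CPM, than in epithelial sums, at 21.2 ± 7.05 CPM (1.00, SE 0.20, adjusted p = 5.35e-05). In the lamina propria epithelial sums averaged 26.3 ± 6.05 CPM and macrophage sums 61.1 ± 30.8 CPM (macrophage against epithelial 1.15, SE 0.38, adjusted p = 0.0271, lost without library 1 or 2 at 1.26 and 0.46), and T against epithelial did not pass (0.33, SE 0.32).

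St3gal6, which caps type 2 chains, was counted in every gate, from 12.1 ± 2.00 CPM in lamina propria plasma sums to 114 ± 25.8 CPM in colon epithelial sums and 95.8 ± 7.00 CPM in T sums of the epithelium. Colon plasma sums were above those of the lamina propria (1.02, SE 0.26, adjusted p = 0.0498; lost without any 1 library, 0.87 to 1.24), as were colon epithelial sums (1.73, SE 0.21, adjusted p = 0.000327, with 32% called). St3gal1, the main enzyme that caps the core O-glycan of T cells, was highest in macrophages, 138 ± 82.8 CPM in the colon and 95.1 ± 8.98 CPM in the lamina propria. In T sums it was at 45.7 ± 3.00 CPM in the colon and 17.3 ± 1.55 CPM in the lamina propria (1.09, SE 0.25, adjusted p = 0.00801), a call lost without library 2 (1.01) or 3 (1.04). St3gal2 and St3gal5, the synthase of ganglioside GM3, stayed at 15.6 CPM or less in each WT mean.

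**Figure D3:**
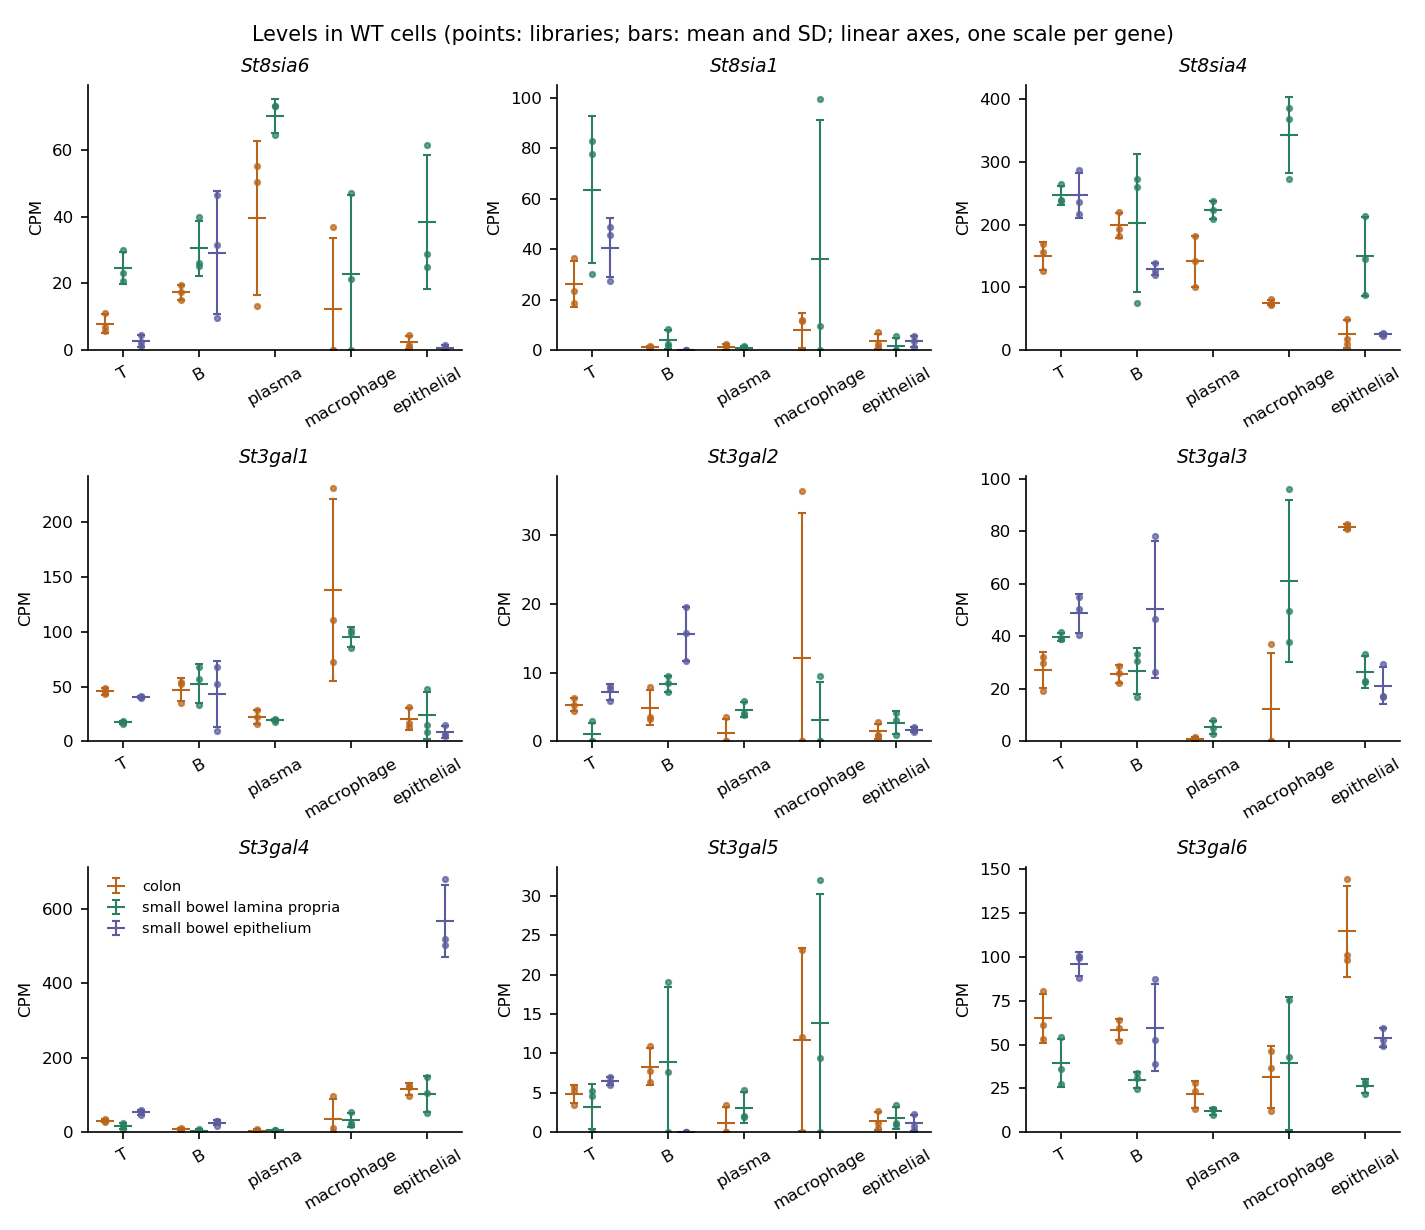
Levels of the 9 genes in WT sums (y axis, CPM, linear, one scale per gene) by gate (x axis) and tissue (colour); points are libraries, bars the mean and SD. St8sia6 peaks in plasma sums (70.2 CPM in the lamina propria), St8sia1 in T sums (63.5 CPM) and St3gal4 in epithelial sums (567 CPM in the epithelium).

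Over all pairs of gates, 84 of 187 tests of the members passed, and over pairs of tissues 29 of 69. In pairs not given above, the share of all genes called was 9.56% for T against macrophage, 10.8% for B against macrophage, 13% for plasma against macrophage, 21% for macrophage against epithelial and 65.9% for B against epithelial sums of the colon. In the lamina propria it was 18% for T against macrophage, 23.4% for B against macrophage, 33.1% for plasma against macrophage, 36.7% for macrophage against epithelial and 43.6% for B against epithelial sums, and in the epithelium 42.3% for B against epithelial sums. Between tissues it was 1.76% and 9.03% for B sums of the colon and the lamina propria against the epithelium, and 27.5% for epithelial sums of the lamina propria against the epithelium. Levels of different genes are molecule counts and were not compared with each other.

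Loss of St8sia6 went with no called change of another member outside 1 gate. Over the 12 fits other than the epithelial gate of the epithelium, 62 tests of the other 8 genes gave 0 calls by edgeR's quasi-likelihood test (5 at an unadjusted p under 0.05, lowest adjusted p 0.15), where 0% to 0.74% of all genes were called. Besides the fits given elsewhere, the share was 0.0147% in colon epithelial, 0.00927% in lamina propria epithelial and 0.118% in epithelium B sums, and 0% in colon T, both macrophage and lamina propria B sums. By DESeq2 the count was also 0. Their log2 ratios ran from -1.34 to 1.07 with a median of -0.02, and 31 of the 62 were below 0. Medians over all genes of these fits lay between -0.011 and 0.016. The 62 tests cover a part of 96 gene, gate and tissue sets, since the filter on low counts left the others out. In unscaled levels KO lay above WT without overlap in 8 of the 96 sets and below in 0. Among the 8 was St3gal1 in lamina propria macrophages, with 121 to 204 CPM in KO and 84.8 to 101 CPM in WT. The matching share over all genes was not counted, so the 8 and 0 cannot be read as a rise of these genes.

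St3gal1 in T sums of the lamina propria had the highest log2 ratio of the 62 tests. It measured 44.0, 37.6 and 40.3 CPM in KO, 30.5, 37.1 and 44.7 CPM in het and 18.0, 15.5 and 18.4 CPM in WT, so KO and het lay above WT in all 3 libraries (log2 1.07, SE 0.33, adjusted p = 0.36, beside 0.0554% of genes called). With the gate taken regardless of other markers the ratio was 0.14. WT library 1 had 930 CPM of the T marker list (Cd3d, Cd3g, Trac, Trbc2 and Cd2) and 25658 CPM of Jchain, against 1493 to 1715 CPM of the list in the other T sums of this tissue, and its part was not tested. Colon B sums gave 57.3, 73.8 and 55.0 CPM of St3gal1 in KO, 43.5, 69.2 and 47.9 in het and 52.2, 54.0 and 35.2 in WT (0.42, SE 0.13, adjusted p = 0.38).

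In T sums of the epithelium, where 0.74% of genes were called, St3gal1 stood at 41.9, 44.3 and 41.7 CPM in KO, 38.1, 43.3 and 43.2 in het and 39.9, 41.3 and 40.8 in WT. The ratio there was 0.06 (SE 0.09).

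St3gal6 in the same T gate had the lowest adjusted p of the 62 tests. It measured 70.9, 94.9 and 68.1 CPM in KO, 68.6, 90.9 and 69.7 CPM in het and 100, 99.4 and 87.8 CPM in WT (log2 -0.31, SE 0.09, adjusted p = 0.15). KO library 2 overlapped WT. St3gal3 in this gate measured 54.6, 65.5 and 63.4 CPM in KO, 64.4, 64.8 and 57.4 CPM in het and 40.5, 50.5 and 55.0 CPM in WT (0.29, SE 0.11, adjusted p = 0.28), with KO library 1 below WT library 3.

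**Figure D4:**
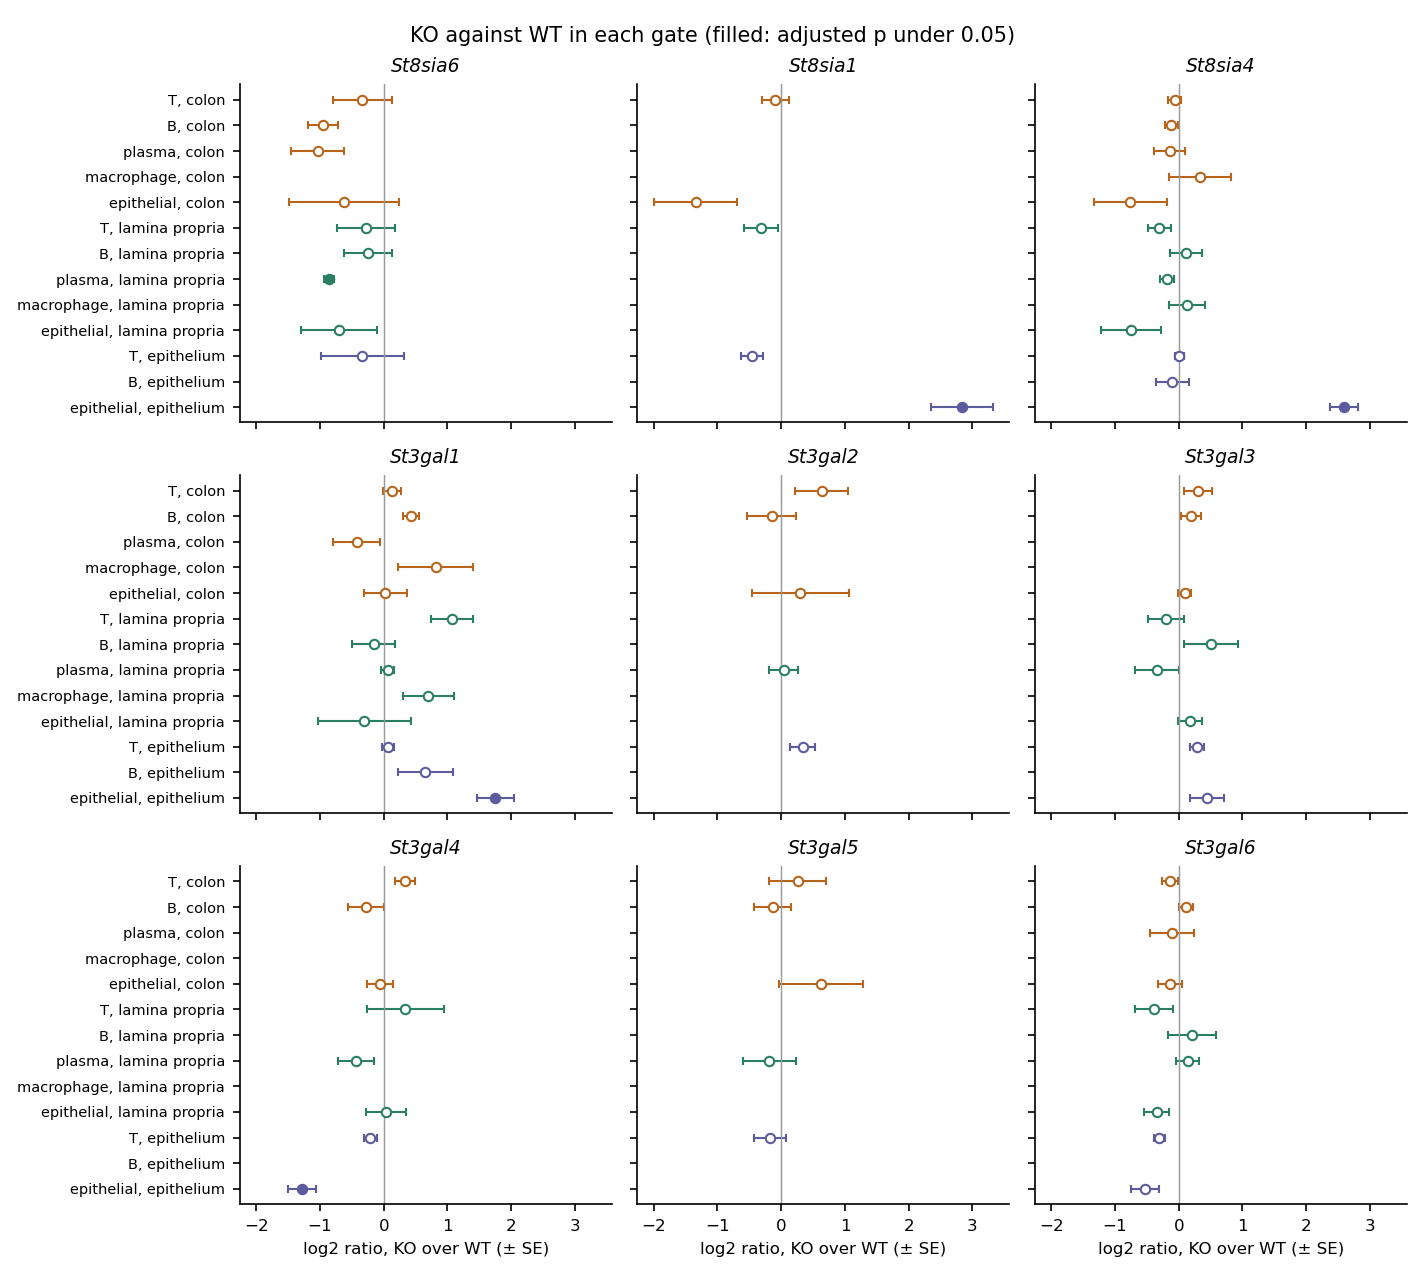
Log2 ratio of KO over WT (x axis, with SE) for the 9 genes in each gate and tissue (y axis); filled points have an edgeR adjusted p under 0.05. St8sia6 lies below 0 in 9 of 9 fits and is filled in lamina propria plasma sums (-0.86), and the filled points of other genes lie in the epithelial gate of the epithelium.

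In epithelial sums of the epithelium 4 of 6 tested members passed, but 1858 of 9624 genes (19.3%) did so too. Over all genes 851 were called without library 1 and 854 without library 2, and the 4 members kept their calls without any 1 library. St8sia4 measured 195, 276 and 93.7 CPM in KO, 231, 313 and 151 CPM in het and 25.7, 28.0 and 22.9 CPM in WT (2.58, SE 0.22, adjusted p = 0.000155). St8sia1 rose by 2.83 (SE 0.48, adjusted p = 0.00306) and St3gal1 by 1.75 (SE 0.29, adjusted p = 0.00295). St3gal4 fell, with 213, 272 and 315 CPM in KO, 206, 147 and 379 CPM in het and 519, 504 and 679 CPM in WT (-1.28, SE 0.22, adjusted p = 0.00336). The same 4 genes passed in het against WT (2.95, 3.73, 1.5 and -1.45), where 22.5% of genes were called, and 0% were called between KO and het.

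These sums differed in what they held. The gate had 79, 58 and 53 KO cells, 89, 75 and 45 het cells and 393, 425 and 396 WT cells. Ptprc, which encodes CD45, measured 313, 465 and 285 CPM in KO, 479, 409 and 203 in het and 51.1, 78.8 and 48.8 CPM in WT. The T marker list was at 151 to 466 CPM in KO, 122 to 197 in het and 29.8 to 62.3 in WT sums. The macrophage list (C1qb, C1qc, Csf1r, Cd68 and Adgre1) was at 63.1 to 90.5, 50.2 to 149 and 7.25 to 14.0 CPM, and the epithelial list (Krt8, Krt18, Krt19, Cdh1 and Fabp1) at 3935 to 5634, 3407 to 7088 and 6379 to 9078 CPM, in the order KO, het, WT. Cd3d and Trac, defining T cell markers, were above 0 in all 9 sums, at 1.56 CPM or more, and so was Krt8, at 1485 CPM or more. The median count of molecules per cell was 7203, 8173 and 3765 in KO, 7284, 6357 and 7938 in het and 4470, 4022 and 2590 in WT libraries 1 to 3, so KO and het lay above WT of the same library. The part of these differences in the 4 calls was not tested.

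Genes of the wider sialic acid route were read from 6 lists with 45 genes. KO against WT gave 0 calls in 224 tests by edgeR outside the epithelial gate of the epithelium: 57 tests of the sialic acid supply, 37 of the alpha-2,6 sialyltransferases, 13 of the sialidases, 68 of O-glycan core enzymes, 13 of sialic acid binding lectins and 36 of the ganglioside route. Of all genes 19.3% were called in that gate. There Gne, the first enzyme of sialic acid synthesis, rose by 0.75 (SE 0.22). Cmah, which makes the glycolyl form, rose by 2.62 (SE 0.36), and these were 2 of 7 tested supply genes. Gcnt1, the core 2 branching enzyme, rose by 2.10 (SE 0.54), 1 of 11. The lectins Cd33, Siglece and Siglech rose by 2.29, 4.24 and 2.41, 3 of 4 tested. Siglece and Cd33 encode receptors of myeloid cells, and Siglech one of plasmacytoid cells. The KO sums of this gate also held more Ptprc than its WT sums, as given above, and its part was not tested. The comparisons of KO and of het share their WT sums. In het against WT and KO against het, members gave no call outside the epithelial gate of the epithelium. Of all genes 0.344%, 0.00735% and 0.118% were called for het against WT in colon B, colon epithelial and epithelium B sums, and 0.0303%, 0.0915%, 0.0296% and 0.0139% for KO against het in colon B, epithelium T, epithelium B and lamina propria T sums. In het against WT, St6gal1, which caps N-glycans in the alpha-2,6 position, fell in T sums of the epithelium (-1.77, SE 0.26, adjusted p = 0.012, with 0.732% of genes called).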

How the data were processed

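Droplet 5′ gene expression and hashtag libraries (18 in all) of CD45-enriched cells from colon and from the lamina propria and epithelium of the small bowel were used, 3 runs per tissue. The deposited tables hold raw counts of molecules per gene and cell, made with Cell Ranger on mm10, per the submitters' processing notes, versions not given in the sources used here. Other tables deposited by the authors hold the gene and barcode names.

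Cells with 200 to 8000 genes, 300 to 50000 molecules and under 20% mitochondrial molecules were kept, the limits that the study states. Doublets were not called; cells with markers of several gates were left out. Sums of at least 10 cells were fitted with edgeR 4.0.16 (R 4.3.3): TMM scaling, filterByExpr, the quasi-likelihood test with library as a block, and Benjamini-Hochberg adjustment over all genes of a fit (threshold 0.05). The block was used because the 3 genotypes of a library were processed and captured together. Contrasts between tissues of WT cells carried no block, since libraries of different tissues were not matched to runs. Their p-values take no account of tissues that come from the same run. Library numbers name sets of barcode endings within a tissue and are not the run numbers of the labels. KO against WT, het against WT, KO against het, gates and tissues within WT, and the tissue by KO interaction were tested, with DESeq2 1.42.0 as an alternative. The fits were tested on simulated data. Shares have exact Clopper-Pearson 95% intervals, and a count of 0 was read against 3 counts; both cover counting error only. Text names all 9 members, the 5 genes most like St8sia6 and the list genes that passed. The members and lists were chosen with earlier results of these data known. Sequences are RefSeq's (GRCm38.p6). Python 3.11.15, numpy 2.4.6, scipy 1.17.1, pandas 2.3.3 and matplotlib 3.10.9 were used.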

Additional observations from a re-analysis of the deposited data

Results flagged for a closer look

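The KO effect on St8sia4 in the epithelial gate differed between the 3 tissues (edgeR interaction test, adjusted p = 0.0281, beside 4.91% of genes called). KO against WT was -0.76 in the colon (SE 0.57), -0.75 in the lamina propria (SE 0.47) and 2.58 in the epithelium (SE 0.22). The adjusted p was 0.245 without library 1 and 0.238 without library 2. Ptprc stood at 285 to 465 CPM in KO and 48.8 to 78.8 CPM in WT sums of this gate in the epithelium, and its part was not tested.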

How the results depend on the processing

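St8sia6 in lamina propria plasma sums kept its call under 9 alternatives (log2 -1.24 to -0.85, adjusted p 9.31e-06 to 0.0455), with the upper value without the replicate block (-0.85, edgeR adjusted p = 0.0455). Of the 9, sums of at least 50 cells gave the same fit, since each of these sums held 247 cells or more. St8sia6 lost the call when any library was left out (-0.90 to -0.82), so members called outside the epithelial gate of the epithelium numbered 0 then, against 1. The other St8sia6 ratios had no call to lose. Over 9 St8sia6 ratios and 102 alternatives, 96 kept direction and side of the threshold, 3 lost the call and 3 changed sign: colon epithelial sums (-1.30 to 0.16 over libraries left out, 0.16 without library 2), lamina propria T sums (-0.69 to 0.18, 0.18 without library 1) and 1.13 for lamina propria B sums with cells held to an 80% share of their own hashtag. Over 113 WT contrasts and 1079 alternatives, 926 kept both, 151 lost the call and 2 changed sign: St8sia1, B against epithelial in the colon, 0.47 by hashtag share (otherwise -1.40), and St3gal1, T of lamina propria against epithelium, 0.41 with the inclusive gate (otherwise -0.86). By hashtag share 46 contrasts between gates passed, against 84. Without 1 library 16 to 26 contrasts between tissues passed, 17 without library 1 and 16 without library 3, against 29. Members with a tissue by KO interaction numbered 2 by hashtag share, 2 with the inclusive gate and 0 without library 1 or 2, against 1. Plasma cell shares with St8sia6 thinned to 1000 molecules were 3.15%, 1.64% and 4.17% in colon KO, het and WT cells and 3.61%, 5.92% and 6.5% in the lamina propria. The inclusive gate gave 32.2%, 44.5% and 49.9% there. All genes called in KO fits numbered 1974, with 939 without library 2 and 4771 with the inclusive gate. The block changed no St8sia6 call. The alternative that keeps cells whose own hashtag leads was chosen after seeing the data. The causes of these changes were not tested, apart from fewer samples when a library was left out.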
